A study of Mus musculus with 14 samples.

Results

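Replication-dependent histone genes encode the linker histone H1 and the core histones H2A, H2B, H3 and H4 that package newly copied DNA. They were taken as every row whose label begins with Hist1h, Hist2h, Hist3h or Hist4h and that was above 0 RPKM (reads divided by the length of the gene model in kilobases and by the library total) in at least 1 of 14 libraries. The rule found 70 labels, of which 64 were above 0, among 18207 labels above 0 and 48714 labels in all. By type these were 6 H1, 17 H2A, 18 H2B, 11 H3 and 12 H4 genes. Of the 64, 52 lie on chromosome 13, 9 on chromosome 3, 2 on chromosome 11 and 1 on chromosome 6. The labels Hist1h2aa, Hist1h2aj, Hist1h2al, Hist1h4m, Hist2h3c1 and Hist3h2bb-ps were listed at 0 in every library.

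The RNA came from haematopoietic stem cells (HSCs), the cells that renew the blood lineages, from the bone marrow of C57BL/6 mice. The cells were sorted by calcium into a calcium-high population, labelled [Ca2+]high, and a calcium-low population, labelled [Ca2+]low. Both are described as HSCs, and no age, genotype, treatment or further sort gate is given in the labels. Each population had 7 libraries, numbered 1 to 7 and made from 100 cells each. The labels do not say that libraries came from separate animals, so p-values measure only the spread between these samples.

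Most messenger RNAs end in a poly(A) tail. The messages of replication-dependent histones end instead in a short stem-loop, which is bound by the protein Slbp and is needed for their processing, translation and decay. Their transcription and processing rise as a cell enters S phase, when DNA is copied, and the messages are degraded when copying ends. Adult HSCs are known to be mostly quiescent. The libraries were made from total RNA with not-so-random primers, so transcripts without a tail can be captured. Some histone genes also yield longer, polyadenylated transcripts.

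The stem-loop that gives these messages their particular 3′ end was looked for in the annotated transcripts of GENCODE M21 (build GRCm38). The search, on the transcript strand, was for GG, 3 bases of any kind, TTTT, 1 base of any kind, A, 3 bases of any kind and CC. It was present in 42 of the 64 members (65.6%) and in 512 of 55271 other gene symbols (0.926%). It was found in 4 of 6 H1, 11 of 17 H2A, 10 of 18 H2B, 7 of 11 H3 and 10 of 12 H4 genes. Of the 22 members without a match, 10 have annotated models that hold the coding sequence only. The 6 forms found are given here with one gene for each, 5′ to 3′, as DNA letters, with the 4 bases of the loop in capitals.
Hist1h1d: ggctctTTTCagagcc
Hist1h3e: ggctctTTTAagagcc
Hist2h2ac: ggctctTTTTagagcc
Hist1h4d: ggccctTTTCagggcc
Hist1h4i: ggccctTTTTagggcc
Hist1h4b: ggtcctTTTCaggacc
The form shown for Hist1h1d was held by 25 members of the types H1, H2A, H2B and H3. The form of Hist1h4d was held by 6 members, all of them H4 genes. The form of Hist1h3e was held by 6 members (1 H1, 2 H2B and 3 H3), that of Hist1h4i by 2 H4 genes, that of Hist1h4b by 2 H4 genes and that of Hist2h2ac by 1. Every H4 match thus had a stem that differs from the stem of the other types.

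The promoters of the types also differ in their short motifs. RefSeq promoters (GRCm38.p6, 300 bases, from 250 before to 50 after each annotated start) matched 59 of the 64 members. ATTTGCAT, the octamer bound by POU factors such as Oct-1, was present on either strand in 7 of 16 H2B and 6 of 17 H2A promoters. It was in none of the 6 H1, 9 H3 and 11 H4 promoters, and in 1.74% of all 32851 promoters. CCAAT was in every matched H1, H2A, H2B and H3 promoter, in 3 of 11 H4 promoters and in 37.4% of all promoters. TATAAA was in 33 of the 59 and in 13.6% of all promoters. AAACACA, known as a motif of H1 promoters, was in 5 of 6 H1, 1 of 17 H2A and 2 of 16 H2B promoters, in none of the H3 and H4 promoters and in 7.18% of all promoters. Motifs were counted one by one, whether or not they overlapped. Some H2A and H2B genes have promoter windows that overlap, such as Hist1h2ae with Hist1h2bg and Hist1h2ah with Hist1h2bk. The same match can then count in both types, so the H2A and H2B counts are not separate. The 100 bases before the start are shown for 4 members on which the results turn, with ATTTGCAT, CCAAT and TATAAA (either strand) in capitals.
Hist2h2bb: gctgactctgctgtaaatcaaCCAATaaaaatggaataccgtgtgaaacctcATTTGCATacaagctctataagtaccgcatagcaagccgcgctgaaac
Hist1h2bg: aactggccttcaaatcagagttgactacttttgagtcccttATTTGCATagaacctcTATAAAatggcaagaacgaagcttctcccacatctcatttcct
Hist1h1b: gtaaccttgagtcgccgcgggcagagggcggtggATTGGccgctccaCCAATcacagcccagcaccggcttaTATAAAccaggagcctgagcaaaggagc
Hist1h4d: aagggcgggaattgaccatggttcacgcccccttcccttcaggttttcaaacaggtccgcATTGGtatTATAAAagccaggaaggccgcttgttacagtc
On GRCm38.p6 these stretches are chr3:96269600-96269699 (plus strand), chr13:23571300-23571399 (plus), chr13:21780626-21780725 (minus) and chr13:23581468-23581567 (plus). A match is a description of the letters and does not show that a factor binds there.

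The authors' values were divided by library totals of 14.3 to 37.2 M reads (14.3 to 23.9 M in replicates 1 to 3 and 29.2 to 37.2 M in replicates 4 to 7). The histone members held 923 to 15180 recovered reads per library. For 17 of the 64 the gene length behind the reads is the shortest that gives whole reads, so their read numbers may be a fraction of the true ones. For a gene model of 1 kilobase with no read, counting error alone allows a level of 0.0808 to 0.210 RPKM, the value of 3 reads. Calcium-low replicate 3 stood apart from the other 13 libraries. Of 9 listed neutrophil markers, 6 had their highest value there, and the list summed to 770 RPKM against 9.59 to 56.5 RPKM elsewhere. S100a8, a granule protein of mature neutrophils, was at 391.9 RPKM there and did not pass 6.30 RPKM elsewhere. The erythroid list summed to 351 RPKM there and 114 to 233 RPKM elsewhere. The 12 HSC markers summed to 189 RPKM there, to 194 RPKM in calcium-high replicate 3 and to 246 to 364 RPKM in the other 12 libraries, and the stem cell factor receptor Kit was at 59.3 to 76.1 RPKM in every library. Calcium-high replicate 5 had the highest value of 5 of the 8 monocyte and macrophage markers, which summed to 185 RPKM against 43.4 to 153 RPKM. The part of these markers in the histone results was not tested.

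Histone RNA was dominated by a few libraries, and these were not all of one calcium group. The RPKM of the 64 members summed to 75.4 (lowest), 113 (median) and 416 (highest) in calcium-high libraries. In calcium-low libraries the sum was 96.0, 122 and 1127 in the same order. The groups overlapped, and 3 libraries lay above all the others: calcium-low replicate 3 at 1127, calcium-high replicate 5 at 416 and calcium-low replicate 1 at 318 RPKM, beside 75.4 to 140 RPKM in the other 11. The mean was 149 ± 119 RPKM (SD, n = 7) for calcium-high libraries and 288 ± 378 RPKM (SD, n = 7) for calcium-low. Without calcium-low replicate 3 the calcium-low mean was 148 ± 84.7 RPKM (SD, n = 6). Without calcium-high replicate 5 the calcium-high mean was 105 ± 18.5 RPKM (SD, n = 6). The sum was higher in the calcium-high library in 2 of 7 pairs of the same number. Histone reads were 0.210% of the reads in tested genes in calcium-low replicate 3, 0.0835% in calcium-high replicate 5, 0.0592% in calcium-low replicate 1 and 0.0176% to 0.0346% in the others. In bulk samples such as these, fewer cells of a kind and less RNA per cell cannot be told apart.

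**Figure D1:**
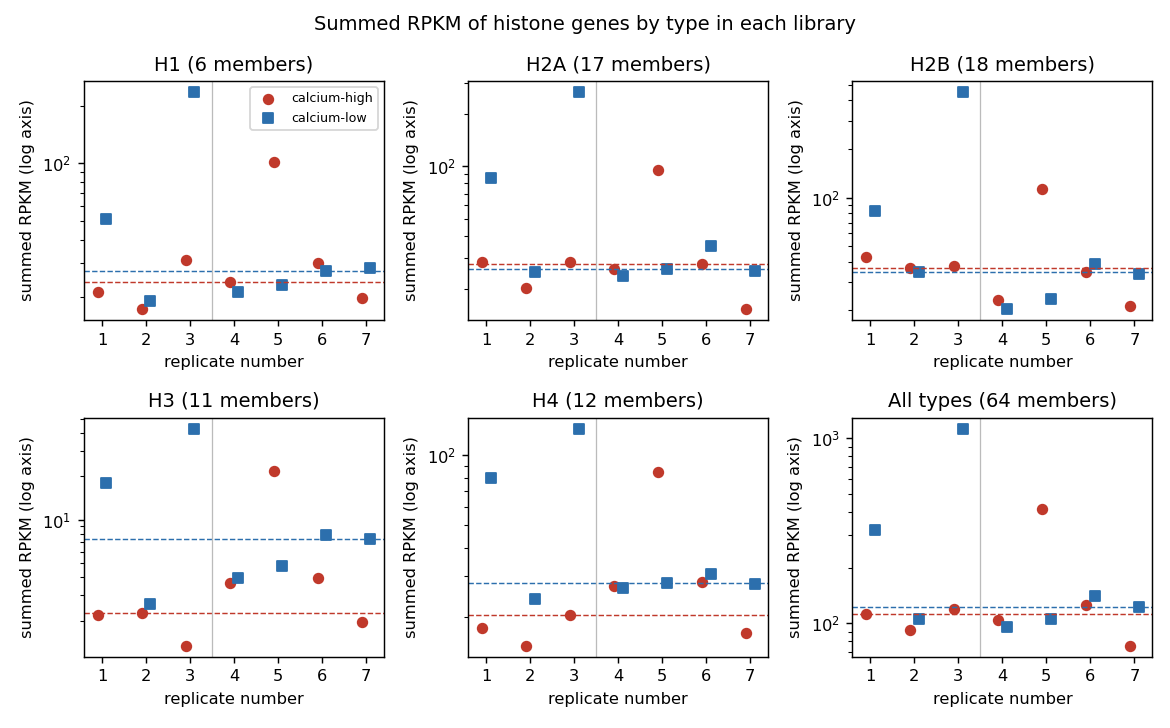
Summed RPKM of the members of each histone type (log axis) against the replicate number, with calcium-high libraries as circles and calcium-low libraries as squares. Dashed lines are group medians and the vertical line separates replicates 1 to 3 from 4 to 7. Calcium-low replicates 3 and 1 and calcium-high replicate 5 are the 3 highest libraries in every panel, and the other libraries of the groups overlap.

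The excess of calcium-low replicate 3 was not the same in every type. Against the median of the 12 libraries other than itself and calcium-high replicate 5, its sum was 10.1 times as high for H1, 10.2 times for H2A, 13.04 times for H2B, 11.3 times for H3 and 4.83 times for H4. In calcium-high replicate 5 the same ratios were 4.30, 3.66, 3.26, 5.74 and 3.14. H2B held 40.1% of the histone sum in calcium-low replicate 3 and 21.2% to 40.2% over all libraries. H4 held 11.6% there, its lowest share in any library, against a median of 22.7%. These ratios are single libraries, with no replicate check and no test.

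Among the 4 linker histone genes of highest mean RPKM, Hist1h1c varied least between libraries and Hist1h1b most. Hist1h1c was at 6.96 (lowest), 9.64 (median) and 18.2 RPKM (highest) in calcium-high libraries, and at 6.66, 9.75 and 35.6 RPKM in calcium-low libraries. Hist1h1b (chromosome 13, 21779883 to 21780625, minus strand) was at 0.176, 1.98 and 26.0 RPKM in calcium-high libraries, and at 0.730, 2.41 and 68.6 RPKM in calcium-low libraries. For both genes the highest library was calcium-low replicate 3 and the second calcium-high replicate 5, and the groups overlapped. Calcium-low replicate 3 was 3.69 times the median of the other 13 libraries for Hist1h1c and 34.6 times for Hist1h1b. In calcium-low replicate 1 those ratios were 1.52 and 1.71. Hist1h1d, the H1 gene of highest mean RPKM, ran from 5.06 to 29.0 RPKM in calcium-high libraries and from 4.29 to 76.9 RPKM in calcium-low libraries, with medians of 6.90 and 6.49 RPKM. Hist1h1e ran from 3.58 to 15.2 RPKM and from 3.84 to 32.4 RPKM, with medians of 5.17 and 5.40 RPKM. The 4 genes share the roles of somatic linker histones, which bind the DNA between nucleosomes.

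Among the H2A genes, Hist2h2aa1 had the highest level and Hist1h2ap and Hist1h2ac varied most among the 4 of highest mean. Hist2h2aa1 was at 6.43 (lowest), 10.6 (median) and 32.7 RPKM (highest) in calcium-high libraries and at 7.65, 11.7 and 63.4 RPKM in calcium-low libraries. Its top 3 libraries were the same as for the sum, with 26.3 RPKM in calcium-low replicate 1. Hist1h2ap was at 0.155, 1.52 and 10.5 RPKM in calcium-high libraries and at 0.641, 1.70 and 33.8 RPKM in calcium-low libraries. Hist1h2ac went against the other libraries in one respect: calcium-high replicate 5 was at 2.17 RPKM, which was the median of its group, whereas calcium-low replicates 1 and 3 were at 11.2 and 22.1 RPKM. Hist3h2a, from the cluster on chromosome 11, ran from 3.24 to 12.7 RPKM in calcium-high libraries and from 3.59 to 40.9 RPKM in calcium-low libraries. The groups overlapped for each of these genes.

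The H2B genes held the largest single excess in RPKM. Hist2h2bb (chromosome 3, 96269752 to 96270132, plus strand) was at 2.59 (lowest), 6.39 (median) and 15.2 RPKM (highest) in calcium-high libraries. In calcium-low libraries it was at 2.23, 3.78 and 103 RPKM, where the highest was replicate 3 and the next was replicate 1 at 14.5 RPKM. The groups overlapped, and 1 library set the calcium-low mean: it was 19.4 ± 36.9 RPKM (SD, n = 7) with replicate 3 and 5.57 ± 4.67 RPKM (SD, n = 6) without it. Hist1h2bg was at 3.30, 5.59 and 11.3 RPKM in calcium-high and at 2.03, 4.76 and 72.2 RPKM in calcium-low libraries. Its second highest library was calcium-low replicate 1 at 15.005 RPKM, and calcium-high replicate 5 was at 9.88 RPKM, below calcium-high replicates 1 and 3. Hist1h2bc ran from 4.16 to 11.4 RPKM in calcium-high and from 4.98 to 37.6 RPKM in calcium-low libraries, with medians of 7.59 and 9.74 RPKM. Hist1h2bn ran from 0.238 to 7.51 RPKM and from 0.547 to 48.4 RPKM, with medians of 1.94 and 1.82 RPKM.

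H3 genes were at lower summed RPKM than the other types in every library. Hist1h3a (chromosome 13, 23761853 to 23762386, minus strand) was at 0 (lowest), 0.977 (median) and 4.53 RPKM (highest) in calcium-high libraries and at 0.821, 2.86 and 6.18 RPKM in calcium-low libraries. Its highest library was calcium-low replicate 1, and the reads behind it were 0 to 71 per library. Hist1h3e was at 0, 0.382 and 1.64 RPKM in calcium-high and at 0.685, 1.57 and 4.25 RPKM in calcium-low libraries, again highest in calcium-low replicate 1. In both genes the groups overlapped and calcium-low replicate 3 was not the highest library. Hist2h3c2 ran from 0 to 4.79 RPKM and from 0 to 7.64 RPKM, and Hist1h3c from 0 to 3.47 RPKM and from 0 to 10.6 RPKM, both highest in calcium-low replicate 3. Hist1h3c was above 0 in 7 of 14 libraries. At these read numbers a library at 0 does not show that the gene was silent.

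The H4 gene Hist1h4d had the highest mean RPKM of all members, 19.3 over the 14 libraries. It was at 8.32 (lowest), 10.8 (median) and 42.4 RPKM (highest) in calcium-high libraries and at 11.8, 13.9 and 49.4 RPKM in calcium-low libraries. Calcium-low replicates 3 and 1 and calcium-high replicate 5 were at 49.4, 41.6 and 42.4 RPKM, and the remaining 11 libraries at 8.32 to 15.9 RPKM. The 3 libraries were thus near each other for Hist1h4d, whereas for Hist2h2bb they were at 103, 14.5 and 15.2 RPKM. Hist1h4c (chromosome 13, 23697635 to 23698454, minus strand) was at 1.49, 4.01 and 12.3 RPKM in calcium-high and at 4.49, 6.53 and 24.1 RPKM in calcium-low libraries. Hist1h4h (chromosome 13, 23531050 to 23531519, plus strand) was at 0, 1.57 and 4.05 RPKM and at 1.04, 3.34 and 9.49 RPKM. Hist1h4n, at 0.155, 2.25 and 7.62 RPKM and at 0.704, 1.13 and 13.1 RPKM, had the higher median in calcium-high libraries, unlike the other 3. The groups overlapped for all 4.

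**Figure D2:**
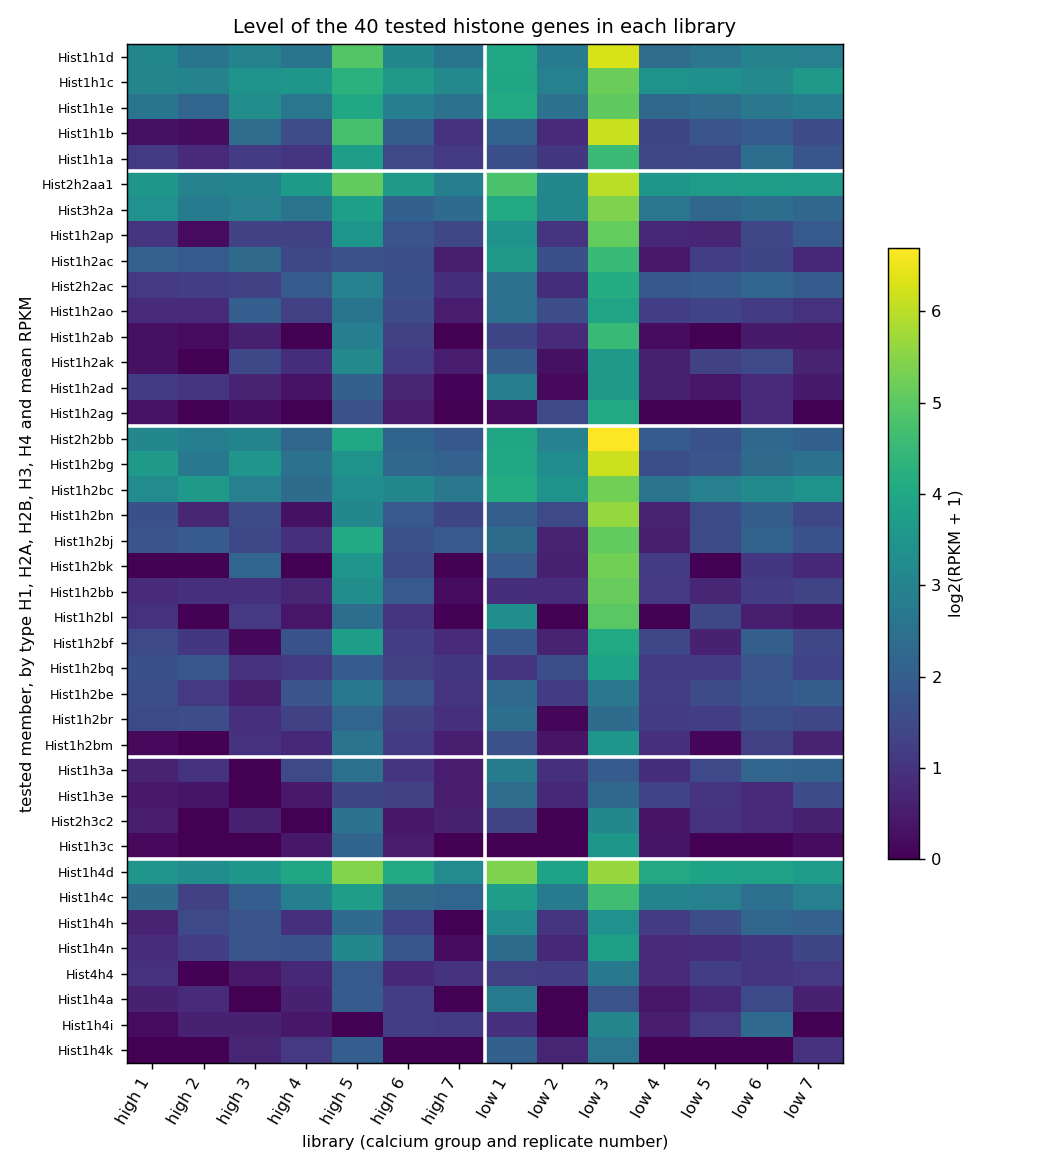
Level of the 40 members that entered the test, as log2(RPKM + 1), in the 14 libraries, with members in rows by type and mean RPKM and libraries in columns. The columns of calcium-low replicate 3, calcium-high replicate 5 and calcium-low replicate 1 are brighter over most rows, and Hist2h2bb in calcium-low replicate 3 is the brightest cell, at 103 RPKM.

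Calcium-low replicate 3 was the highest library for 53 of the 64 members. Calcium-low replicate 1 was the highest for 5, calcium-low replicate 6 for 3, and calcium-high replicates 2 and 5 and calcium-low replicate 7 for 1 each. How many of all labels were highest in calcium-low replicate 3 was not counted, so the 53 is not shown to be particular to histone genes. That library was also highest for 23 of 23 G2 and mitosis genes, 11 of 18 histone chaperones and 8 of 11 variant histones listed. It was highest for 9 of 31 S phase genes and 1 of 12 HSC markers. Calcium-high replicate 5 was the second highest library for 38 members and calcium-low replicate 1 for 12. Of the 64, 28 were above 0 in all 14 libraries, 35 in 2 to 13 libraries and 1 in a single library. Calcium-low replicate 3 had 62 members above 0 and calcium-high replicate 5 had 60, against 42 to 52 in the others.

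Over 38 tested members with a median above 0 in the other 13 libraries, calcium-low replicate 3 was 2.66 to 108 times that median, with a median ratio of 10.3. Tested members are those with a mean of at least 1 RPKM. Hist1h2ag (108), Hist1h2ab (58.6), Hist2h3c2 (15.3) and Hist1h4i (13.9) passed only through calcium-low replicate 3, so their high ratios there follow in part from the filter. For Hist1h2ag the median of the other 13 libraries was 0.146 RPKM. For calcium-high replicate 5 the median ratio was 4.08, with 37 of 38 above 1. For calcium-low replicate 1 it was 3.02 over 39 members, with 35 above 1. The medians by type in calcium-low replicate 3 were 11.9 for H1, 12.3 for H2A, 14.9 for H2B, 4.90 for H3 and 5.36 for H4. In calcium-low replicate 1 they were 1.71 for H1, 3.35 for H2A, 2.03 for H2B, 4.42 for H3 and 3.05 for H4, so the order of the types was not the same in both libraries. Hist1h2be, Hist1h2bq and Hist1h2br had deposited values whose shortest fitting gene models were of 2510, 2175 and 2175 bases, beyond those of the other tested members (366 to 794 bases). Their ratios in calcium-low replicate 3 were 2.67, 9.59 and 2.82, with a median of 2.82 beside 11.9 over the 35 tested members with shorter models. A longer model can take in reads from outside the stem-loop message, and how the reads lie along the gene was not analysed here.

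**Figure D3:**
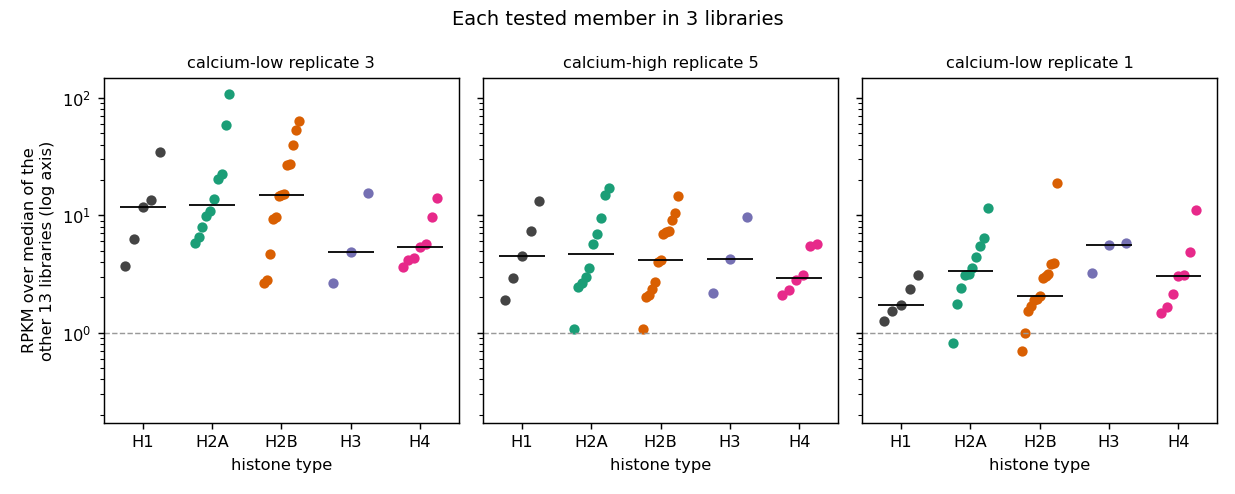
RPKM of each tested member in calcium-low replicate 3, calcium-high replicate 5 and calcium-low replicate 1, divided by its median over the other 13 libraries (log axis), by histone type. Points are genes and bars are medians of the plotted points; members with a median or a value of 0 are not drawn. In calcium-low replicate 3 all plotted points lie at 2.66 or higher. Some of them, such as Hist1h2ag, the highest, entered the test only through that library.

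Calcium-high and calcium-low libraries were compared with limma on log2(RPKM + 1) over the 9921 genes whose mean RPKM was at least 1. Of the 64 members, 40 passed this filter (5 H1, 10 H2A, 13 H2B, 4 H3 and 8 H4), and 24 did not. No histone gene was called at an adjusted p under 0.05, and over all genes 0% were called higher and 0% lower. At an unadjusted p under 0.05, limma had 4 of the 40 members beside 6.74% of all tested genes. Blocking on the replicate number, limma again called 0 members, beside 0.484% of all genes called higher and 0.433% lower. The block had 3 members at an unadjusted p under 0.05, beside 13.9% of all genes, and a smallest adjusted p of 0.235. Limma-voom, on reads recovered from the RPKM, called 0 members as well, beside 5.51% of all genes called higher and 2.11% lower. It had 2 members at an unadjusted p under 0.05, beside 21.2% of all genes. All 40 fold changes were below 0, that is lower in calcium-high libraries, beside 57.8% of all tested genes. Their median log2 fold change was -0.37, beside -0.03 over all genes. With limma-voom the members were split, 20 above 0 and 20 below, where 64.9% of all genes were above 0. The medians were -0.0085 for the members and 0.074 for all genes. Limma-voom was run with a quality weight for each library. The weights were 0.202 to 0.808 in replicates 1 to 3, lowest in calcium-low replicate 3, and 0.908 to 2.72 in replicates 4 to 7. The part of these weights in the split was not tested. No member had calcium groups that did not overlap, beside 0.141% of all tested genes. A member could pass the filter through calcium-low replicate 3 alone, and 6 of the 40 no longer passed without that library, so these counts describe the genes that passed and not all members.

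The even direction of the 40 members changed with the libraries used and with the fit. Among fits that left out 1 library, the median left the negative side without calcium-low replicate 3, and it was -0.27 to -0.66 without any one of the other 13. Without calcium-low replicate 3, 17 of 34 tested members were above 0 and 17 below (51.4% of all genes below), with a median of 0.0034 on the log2 scale, and 0.071% of all genes were called higher and 0.142% lower. Without calcium-high replicate 5, all 38 tested members were below 0 (61.4% of all genes), with a median of -0.66. With both pairs 3 and 5 left out, an alternative chosen after seeing the data, 28 of 30 were below 0 (53.4% of all genes), with a median of -0.33. In that fit 0.425% of all genes were called higher and 0.243% lower. Limma called 0 members in each of these fits. At an unadjusted p under 0.05 they had 1, 9 and 5 members, beside 6.76%, 7.44% and 9.1% of all genes. In replicates 1 to 3 alone all 45 tested members were below 0 (83.3% of all genes), with a median of -1.28. The filter was applied anew to this set, which holds calcium-low replicate 3, and some members passed only through that library. Hist1h3b, for one, was at 9.05 RPKM there and at most 0.140 RPKM in the others of the set. The direction of such members follows from the filter. There 13 members were at an unadjusted p under 0.05, beside 11.6% of all genes, and limma called 0, as it did over all genes. In replicates 4 to 7 alone 29 of 36 were above 0 (73.7% of all genes), with a median of 0.32. The filter was applied anew here too, and this set holds calcium-high replicate 5, through which alone some members passed. Hist1h2ab, for one, was at 6.35 RPKM in that library and at most 1.52 RPKM in the others of the set. The direction of such members follows in part from the filter. In replicates 4 to 7, 0 members were at an unadjusted p under 0.05, beside 26% of all genes. Limma called 0 members in this set, beside 6.68% of all genes called higher and 1.85% lower. Limma-voom was not run on either set. The labels do not say that these 2 sets of numbers were prepared apart. The difference between the sets was not tested.

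**Figure D4:**
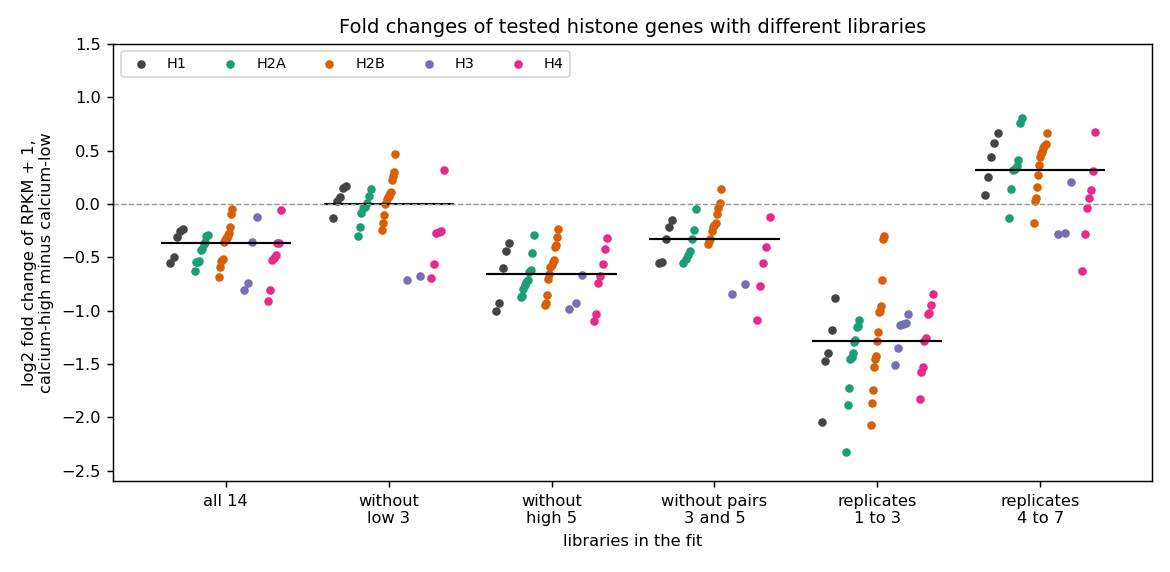
Log2 fold change of RPKM + 1, calcium-high minus calcium-low, of each tested histone gene (points, by type) in fits that use different libraries, with the median over the tested members as a bar. The bar lies at -0.37 with all 14 libraries, at 0.0034 without calcium-low replicate 3, at -0.66 without calcium-high replicate 5 and at 0.32 in replicates 4 to 7.

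By type, the median log2 fold change with all libraries was -0.31 for H1, -0.43 for H2A, -0.32 for H2B, -0.55 for H3 and -0.49 for H4. Without calcium-low replicate 3 it was 0.067 for H1 (4 of 5 above 0), -0.032 for H2A (3 of 8 above 0) and 0.072 for H2B (9 of 13 above 0). In the same fit it was -0.69 for H3 (0 of 2 above 0) and -0.27 for H4 (1 of 6 above 0). In replicates 4 to 7 the medians were 0.44 for H1, 0.34 for H2A, 0.44 for H2B, -0.27 for H3 and 0.059 for H4. With limma-voom they were 0.068 for H1, 0.033 for H2A, 0.058 for H2B, -0.93 for H3 and -0.23 for H4. The H3 median was below 0 in each of these fits, on 2 to 4 genes. Single H3 genes were above 0 in some, with Hist2h3c2 at 0.21 in replicates 4 to 7 and Hist1h3c at 1.16 with limma-voom, and neither was tested without calcium-low replicate 3. In replicates 4 to 7 Hist2h3c2 passed the filter only through calcium-high replicate 5, at 4.79 RPKM beside at most 0.982 RPKM in the others. Its direction there follows in part from the filter. Whether the types differ was not tested.

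The 4 members at an unadjusted p under 0.05 and the next in order were H3 and H4 genes. Their means are given as calcium-high against calcium-low, each with its SD over 7 libraries. Hist1h3e had means of 0.659 ± 0.641 against 1.99 ± 1.43 RPKM and a log2 fold change of -0.80 ± 0.28 (SE, limma adjusted p = 0.507). It was lower in the calcium-high library in 5 of 7 pairs. Hist1h4c was at 4.99 ± 3.55 against 9.58 ± 6.89 RPKM, with a log2 fold change of -0.81 ± 0.34 (limma adjusted p = 0.700), lower in 6 of 7 pairs. For Hist1h4h the means were 1.59 ± 1.34 and 4.19 ± 3.45 RPKM, with a log2 fold change of -0.91 ± 0.39 (limma adjusted p = 0.710). For Hist1h3a they were 1.34 ± 1.51 and 2.78 ± 1.86 RPKM, with a log2 fold change of -0.74 ± 0.35 (limma adjusted p = 0.734). Hist4h4, the lone member on chromosome 6, was at 0.917 ± 0.857 and 1.80 ± 1.67 RPKM (limma adjusted p = 0.827). None of these differences passed the adjustment over all genes. Without calcium-low replicate 3 the log2 fold changes were -0.67, -0.57, -0.69, -0.71 and -0.28 in the same order, so all 5 kept their direction. In replicates 4 to 7 they were -0.27, -0.039, -0.63, -0.28 and 0.059.

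The genes of highest level in each type were far from the threshold. Hist1h4d had a log2 fold change of -0.47 ± 0.36 (SE; limma adjusted p = 0.943), Hist2h2aa1 of -0.54 ± 0.40 (adjusted p = 0.931, limma), Hist2h2bb of -0.34 ± 0.61 (adjusted p = 0.995, limma) and Hist1h1d of -0.31 ± 0.51 (adjusted p = 0.993, limma). For Hist2h2bb and Hist1h1d the standard error exceeded the difference. Hist2h2aa1 and Hist1h4d stayed below 0 without calcium-low replicate 3, at -0.22 and -0.26, while Hist2h2bb and Hist1h1d went to 0.27 and 0.17.

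Some members also differed between replicates 1 to 3 and 4 to 7 within a calcium group. Hist2h2bb was at 7.64, 6.39 and 7.13 RPKM in calcium-high replicates 1 to 3 and at 3.61, 15.2, 3.45 and 2.59 RPKM in replicates 4 to 7. Hist1h2bg was at 11.3, 5.59 and 10.2 RPKM and at 4.73, 9.88, 3.73 and 3.30 RPKM in the same order. Apart from calcium-high replicate 5, replicates 4 to 7 were below all of replicates 1 to 3 for both genes. In calcium-low libraries their medians were 14.5 against 3.04 RPKM and 15.005 against 3.19 RPKM, also higher in replicates 1 to 3. Hist1h4c ran the other way in calcium-high libraries, at 4.15, 1.49 and 3.01 RPKM in calcium-high replicates 1 to 3 and at 6.40, 12.3, 4.01 and 3.56 RPKM in replicates 4 to 7, with overlap between the sets, but in calcium-low libraries its median was 12.5 RPKM in replicates 1 to 3 and 6.51 RPKM in replicates 4 to 7. In the calcium-high group the median of replicates 1 to 3 was above that of replicates 4 to 7 for 6 of 13 H2B genes, 3 of 10 H2A genes, 1 of 5 H1 genes, 1 of 4 H3 genes and 1 of 8 H4 genes, 12 of 40 in all. In the calcium-low group, where replicates 1 to 3 hold 2 of the 3 high libraries, it was above for 38 of 40, all but Hist1h2bb and Hist1h3c. Which difference between libraries of the 2 sets this goes with was not tested.

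Histone genes known from the male germ line were at or near 0. Hist1h1t, a testis linker histone, was above 0 in 5 libraries, with 0.762 RPKM in calcium-high replicate 2 from 8 reads and 3 reads in calcium-low replicate 3. Hist1h2ba, a testis H2B, was the member above 0 in a single library, with 2 reads in calcium-low replicate 3 (0.201 RPKM). Hist1h2aa, a testis H2A, was listed at 0 throughout.

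The values of single members are limited by sequence shared between copies. In the longest annotated transcript of each member, a median of 49.4% of all 50-base words also occurred in another annotated gene. The median was 1.13% for H1, 78.9% for H2A, 47.5% for H2B, 60.4% for H3 and 34.2% for H4. The share was 89.4% for Hist2h2aa1, 93.1% for Hist1h2ap, 86.4% for Hist1h2bn and 10.2% for Hist1h4d. How reads that fit several copies were counted is not given in the sources used here, so the split between copies is uncertain for the 30 members above 50%. Hist2h2aa2, whose words are all shared, was above 0 in 3 libraries (1.07 to 3.82 RPKM), where Hist2h2aa1 was at 7.08 to 12.4 RPKM. Hist1h2be overlaps Hist1h1e in the annotation. Both lie on the minus strand, so counting by strand would not separate reads in the overlap. Whether counting used strand is not given either.

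Most variant histones are also made outside S phase and from polyadenylated messages, although H2afx is known to yield a stem-loop message too and Cenpa to peak in G2. Both had their highest value in calcium-low replicate 3, H2afx at 9.76 RPKM beside 1.18 to 7.57 RPKM in the other libraries and Cenpa at 21.1 beside 1.98 to 7.68 RPKM. Of the 11 listed, 10 were tested. Limma called none of them, 9 of 10 were below 0 (57.8% of all genes), and 3 were at an unadjusted p under 0.05 (6.74% of all genes). Limma-voom had 5 at an unadjusted p under 0.05 (21.2% of all genes) and called 2 lower, H3f3a and H2afy (2.11% of all genes). H3f3a, which encodes the replacement H3 histone, was at 94.0 (lowest), 124 (median) and 137 RPKM (highest) in calcium-high libraries and at 115, 153 and 192 RPKM in calcium-low libraries (limma adjusted p = 0.476). H3f3b, which encodes the same protein, ran from 49.2 to 81.8 RPKM and from 45.4 to 133 RPKM (limma adjusted p = 0.992). H2afz, a variant found at promoters, was at 20.4, 23.8 and 27.98 RPKM and at 25.4, 27.9 and 87.3 RPKM (limma adjusted p = 0.657). H2afy, the macroH2A variant, had means of 39.0 ± 13.3 RPKM (SD, n = 7) in calcium-high and 58.7 ± 18.9 RPKM (SD, n = 7) in calcium-low libraries. Its limma adjusted p was 0.699, and with the replicate number as a block it was called lower (limma adjusted p = 0.0364). The groups overlapped in all 4. H2afy was at 35.2 RPKM in calcium-low replicate 3, between calcium-low replicates 2 and 1 at 32.97 and 50.8 RPKM. Calcium-low replicates 4 to 7 were all higher, at 68.9 to 79.2 RPKM. In calcium-high libraries H2afy was at 22.98 to 31.1 RPKM in replicates 1 to 3 and at 43.5 to 55.9 RPKM in replicates 4 to 7. Calcium-low replicate 3 was thus low in its group but in the middle of its library set. A link of H2afy to histone RNA was not tested.

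The genes whose proteins process, bind and degrade histone messages were also mostly below 0. Of 16 tested genes of this list, limma called none with or without the block, 14 were below 0 (57.8% of all genes) and 1 was at an unadjusted p under 0.05 in both fits (6.74% of all genes, and 13.9% with the block). Limma-voom called none and had 1 at an unadjusted p under 0.05 (21.2% of all genes). Slbp, which binds the stem-loops shown above, was at 5.92 (lowest), 11.3 (median) and 13.4 RPKM (highest) in calcium-high libraries and at 11.9, 13.6 and 23.01 RPKM in calcium-low libraries. The groups overlapped, and the highest values of each were calcium-high replicate 5 and calcium-low replicate 3. Its log2 fold change was -0.52 (limma adjusted p = 0.459, and 0.118 with the block). Snrpb, a core protein of spliceosomal and U7 particles, ran from 20.7 to 37.8 RPKM and from 23.9 to 40.6 RPKM. Upf1, a helicase in RNA decay, ran from 8.96 to 18.0 RPKM and from 9.72 to 17.7 RPKM, and Sympk, a scaffold of the cleavage complex, from 9.34 to 16.6 RPKM and from 11.6 to 14.4 RPKM. In replicates 4 to 7 the median log2 fold change of this list was 0.0012.

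Histone chaperones, which carry new histones to DNA, gave a like count. Of 18 tested, limma called none with or without the block, 16 were below 0 (57.8% of all genes), and 3 were at an unadjusted p under 0.05 (6.74% of all genes). The block had 7 at that level (13.9% of all genes) and a smallest adjusted p of 0.0589, and limma-voom had 2 (21.2% of all genes) and called none. Rbbp7, a subunit of several chromatin complexes, ran from 22.5 to 26.9 RPKM in calcium-high and from 18.8 to 43.9 RPKM in calcium-low libraries. Ssrp1, a subunit of the chaperone FACT, ran from 17.5 to 25.6 RPKM and from 16.3 to 32.2 RPKM. Nap1l4, a nucleosome assembly protein, ran from 16.2 to 20.4 RPKM and from 14.8 to 21.4 RPKM. Hjurp, the chaperone of the centromeric variant Cenpa, was at 11.3 to 18.4 RPKM in 13 libraries and reached 43.0 RPKM in calcium-low replicate 3. Calcium-low replicate 3 had the highest value of 11 of 18 chaperones, 8 of 11 variants and 8 of 17 processing genes listed above 0.

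The 3 libraries of high histone RNA were near each other in S phase genes and differed in G2 and mitosis genes. The mean log2(RPKM + 1) of the 29 tested S phase genes was 3.96 in calcium-low replicate 3 and 3.95 in calcium-low replicate 1. It was 3.75 in calcium-high replicate 5 and 2.75 to 3.60 in the other 11. For the 20 tested G2 and mitosis genes it was 4.47, 1.37 and 1.71 in the same order, and 0.65 to 1.09 in the others. Calcium-low replicates 3 and 1 were thus level for S phase genes, while their histone sums were 1127 and 318 RPKM. All 23 listed G2 and mitosis genes, tested or not, had their highest value in calcium-low replicate 3. They summed to 543 RPKM there, 44.0 RPKM in calcium-low replicate 1 and 55.4 RPKM in calcium-high replicate 5. Of the 31 listed S phase genes, 13 were highest in calcium-low replicate 1 and 9 in calcium-low replicate 3. The S phase list had 29 of 29 tested genes below 0 and the G2 and mitosis list 20 of 20 (57.8% of all genes). Without calcium-low replicate 3, 29 of 29 and 7 of 7 tested were below 0 (51.4% of all genes). The rest of the 20 passed the filter only through that library, so their direction and part of its level of 4.47 follow from the filter. In replicates 4 to 7, 20 of 30 S phase and 4 of 10 G2 and mitosis genes were below 0 (26.3% of all genes). Limma called none in either, with 11 and 0 at an unadjusted p under 0.05 (6.74% of all genes). With the block it called none either, with 16 and 2 at that level (13.9% of all genes) and a smallest adjusted p of 0.0589 for S phase and 0.346 for G2 and mitosis genes. Limma-voom called 3 S phase genes lower, Dtl, Mcm4 and Mcm7 (2.11% of all genes), and no G2 and mitosis gene, with 8 and 1 at an unadjusted p under 0.05 (21.2% of all genes). The part of cell cycle genes in the histone results was not tested.

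**Figure D5:**
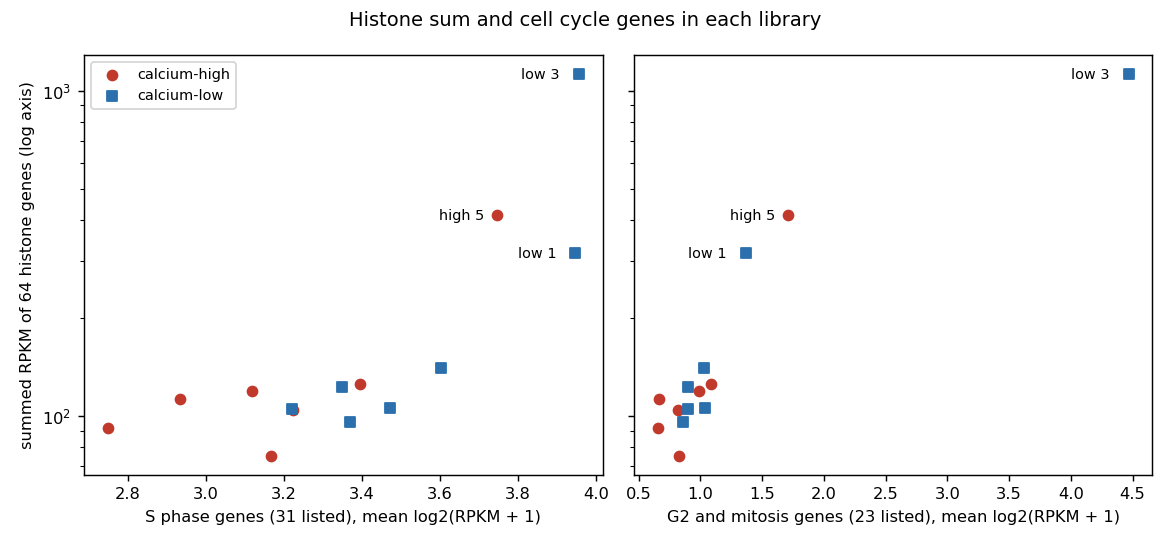
Summed RPKM of the 64 histone genes (log axis) against mean levels of cell cycle genes, one point for each library. The means are of log2(RPKM + 1) over the 29 tested S phase genes and the 20 tested G2 and mitosis genes. The axis labels give the 31 and 23 genes listed. Calcium-low replicates 3 and 1 share an S phase level of 3.96 and 3.95 and differ in G2 and mitosis genes, at 4.47 and 1.37. Part of the level of 4.47 follows from the filter, which only 7 of the 20 genes passed without calcium-low replicate 3.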

How the data were processed

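Total RNA of 100 cells per library was sequenced in 7 calcium-high and 7 calcium-low libraries. The authors deposited one table of RPKM per library; the file headers name no unit, and it was read from the values. The submitters' processing notes name GRCm38, mm10 and edgeR without a role; aligner, counting tool and annotation are not given in the sources used here. Each file listed 48737 labels, and 23 that had become serial numbers were left out. Whole reads were recovered from the RPKM steps (tolerance 0.02 reads, rising to 0.1 at high counts) for all 9921 tested genes, but with a length from an annotation for 113 and 29 of them; 9779 used the shortest length that gave whole reads. Of the 64 members, 47 fit the RefSeq gene span and 17 the shortest other length. Reads at a shortest length, which enter limma-voom and the read shares, may be a fraction of the true ones.

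Genes whose mean RPKM was at least 1 were fitted as log2(RPKM + 1) in limma 3.58.1, run in R 4.3.3 with its trend option, and p-values were adjusted over all of them by Benjamini-Hochberg. The pseudocount of 1 shrinks the fold changes of low genes. On simulated data for this comparison (9855 genes), 80% of genes changed 2-fold and 100% of genes changed 4-fold were called. The simulation gave every gene the same dispersion and held no outlying library and no difference between library sets. Only genes with many expected reads were changed in it. Many histone members varied more than that or had few reads, so these shares do not apply to them. Tables and figures used Python 3.11.15, numpy 2.4.6, pandas 2.3.3 and matplotlib 3.10.9. Same-numbered libraries deviated together (correlations of 0.384 to 0.715 in all 7 pairs), so numbers were taken as pairs for an alternative fit with the number as a block. The closest library of the other group had the same number for 2 of 7 calcium-high and 3 of 7 calcium-low libraries and otherwise another number of the same set (1 to 3 or 4 to 7), so the correlations cannot be told apart from the library sets. Named were the 4 members of highest mean RPKM in each type, the 5 with the smallest p, 3 germ-line genes, members in a single library and the 4 highest genes of each pathway list; others named were chosen after their values were seen. The members and lists were chosen with earlier results of these data known. Alternatives were the block, another scaling, pseudocounts of 0.1 and 5, no filter, library sets, limma-voom with library quality weights and left-out libraries. Intervals and floors cover counting error only.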

Additional observations from a re-analysis of the deposited data

Results flagged for a closer look

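A library is listed here when its gap to the nearest library of its group, over the whole range of the group, passed Dixon's 95% critical value for 7 samples. Of 68 group measures examined, 47 passed, 25 in calcium-low replicate 3, 21 in calcium-high replicate 5 and 1 in calcium-high replicate 2. Chance flags about 1 in 20 groups where values are normally distributed. Most of these measures are RPKM, which are skewed and in some genes hold zeros, so that rate need not hold for them. The measures are also not independent, since the sums hold the genes. In calcium-low libraries Hist1h1t and Hist1h2ba, included in the 25, were above 0 in replicate 3 alone, from 3 and 2 reads, so their listing restates one value above 0. Most genes examined were named for their mean RPKM over all 14 libraries, which a single high library raises. Hist2h3c2 and Hist1h3c did not reach a mean of 1 RPKM without calcium-low replicate 3. Their listing in that library follows in part from this choice.

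Calcium-low replicate 3 lay apart in its summed RPKM of H1 (236), H2A (266), H2B (452), H3 (42.7) and all members (1127). Among H1 genes it lay apart in Hist1h1d (76.9 RPKM), Hist1h1c (35.6 RPKM), Hist1h1e (32.4 RPKM), Hist1h1b (68.6 RPKM) and the testis gene Hist1h1t (0.177 RPKM). Among H2A genes it did so in Hist2h2aa1 (63.4 RPKM), Hist3h2a (40.9 RPKM) and Hist1h2ap (33.8 RPKM). The H2B genes were Hist2h2bb (103 RPKM), Hist1h2bg (72.2 RPKM), Hist1h2bc (37.6 RPKM), Hist1h2bn (48.4 RPKM) and the testis gene Hist1h2ba (0.201 RPKM). The H3 genes were Hist2h3c2 (7.64 RPKM) and Hist1h3c (10.6 RPKM), and the H4 genes Hist1h4c (24.1 RPKM), Hist1h4n (13.1 RPKM) and Hist4h4 (5.54 RPKM). The mean log2(RPKM + 1) of the 10 tested variant histones was 4.84 there, and that of the 20 tested G2 and mitosis genes 4.47. Only 7 of those 20 passed the filter without this library, so their listing follows in part from the filter.

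Calcium-high replicate 5 lay apart in its summed RPKM of H1 (101), H2A (95.2), H2B (113), H3 (21.7), H4 (84.7) and all members (416). It did so in Hist1h1d (29.0 RPKM), Hist1h1c (18.2 RPKM) and Hist1h1b (26.0 RPKM) of the H1 genes, and in Hist2h2aa1 (32.7 RPKM) and Hist1h2ap (10.5 RPKM) of the H2A genes. Of the H2B genes it lay apart in Hist2h2bb (15.2 RPKM) and Hist1h2bn (7.51 RPKM), and of the H3 genes in Hist1h3a (4.53 RPKM), Hist2h3c2 (4.79 RPKM) and Hist1h3c (3.47 RPKM). The H4 genes were Hist1h4d (42.4 RPKM), Hist1h4n (7.62 RPKM) and Hist4h4 (2.70 RPKM). Its mean log2(RPKM + 1) was 3.47 for the 18 tested histone chaperones and 1.71 for the 20 tested G2 and mitosis genes. Calcium-high replicate 2 lay apart in Hist1h1t alone, at 0.762 RPKM.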

How the results depend on the processing

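Across 575 alternative fits of the 21 named genes that were tested, 504 kept the direction and the side of the threshold and 71 turned to above 0; none reached an adjusted p under 0.05, and the smallest was 0.145 (limma-voom). Of all genes, 0 were called in either direction, and 48 higher and 43 lower with the replicate block; the block called 0 members. Higher and lower calls were 651 and 180 in replicates 4 to 7 (592 and 172 with the block), 80 and 42 without pair 3 (173 and 140 with the block), 42 and 24 without pairs 3 and 5, 22 and 29 with the library set as a term and 547 and 209 with limma-voom. Median-of-ratios scaling called 4 higher and no filter 1. Leaving out one library gave 0 to 69 higher and 0 to 32 lower, most without calcium-high replicate 3. The median of the members was -1.28 in replicates 1 to 3, 0.32 in replicates 4 to 7 (also with the block) and -0.66 to 0.0034 with one library left out, the highest without calcium-low replicate 3.

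In replicates 4 to 7 (log2 fold change, also with the block) the reversed genes were Hist1h1d 0.57, Hist1h1c 0.26, Hist1h1e 0.44, Hist1h1b 0.66, Hist2h2aa1 0.14, Hist3h2a 0.33, Hist1h2ap 0.80, Hist1h2ac 0.35, Hist2h2bb 0.56, Hist1h2bg 0.53, Hist1h2bn 0.28, Hist2h3c2 0.21, Hist1h4d 0.31, Hist1h4n 0.68 and Hist4h4 0.059. Without pair 3 (also with the block) they were Hist1h1d 0.19, Hist1h1c 0.027, Hist1h1b 0.042, Hist3h2a 0.059, Hist1h2ap 0.0062, Hist1h2ac 0.029, Hist2h2bb 0.22, Hist1h2bg 0.20 and Hist1h4n 0.28. With limma-voom they were Hist1h1d 0.26, Hist1h1c 0.068, Hist1h1e 0.23, Hist3h2a 0.052, Hist1h2ap 0.61, Hist1h2ac 0.68, Hist2h2bb 0.30, Hist1h2bg 0.46, Hist1h3c 1.16 and Hist1h4n 0.42. With a pseudocount of 0.1 Hist1h3c was at 0.10. Leaving out one library in turn moved Hist1h1d from -0.60 to 0.17, Hist1h1c from -0.37 to 0.024, Hist1h1e from -0.44 to 0.067, Hist1h1b from -1.0006 to 0.15, Hist3h2a from -0.46 to 0.073, Hist1h2ac from -0.54 to 0.14, Hist2h2bb from -0.57 to 0.27, Hist1h2bg from -0.46 to 0.30 and Hist1h4n from -0.32 to 0.32, the highest each time without calcium-low replicate 3. The cause of these changes was not tested. In replicates 4 to 7 Hist2h3c2 passed the filter only through calcium-high replicate 5. The fits without both pairs named, and the block in them, were chosen after seeing the data, except the fit without pair 3 alone. Depth sets the level that a gene at 0 could have had, 0.0808 to 0.210 RPKM for a model of 1 kilobase.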
